A study of Mus musculus with 16 samples.

Results

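Far2, Ywhaz and Capzb are 3 mouse genes whose neighbourhoods held regions of chromatin that were open in hematopoietic progenitors given GATA2 and were not called open in the same cells given an empty vector. They were 3 of the 21938 protein-coding genes of the annotation. The genes were chosen by the measured ranks of the regions that GATA2 opened, so the difference between the GATA2 and the hi-77-/- empty libraries at the leading regions is a description here and was not tested. Within 150 kb of the 5′ ends of the 3 genes there were 100 open regions, of 90541 in the whole series. Far2 had 10 of them, Ywhaz 41 and Capzb 49.

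Accessibility was measured by ATAC-Seq, in which a transposase cuts and tags open DNA, in 16 libraries of 4 groups with 4 replicates each. All cells were mouse fetal liver progenitors immortalized with HoxB8 under estrogen control, so every group carries that transgene, and all were infected with a GFP retrovirus for 3 days and sorted before the nuclei were taken. The groups were cells with both copies of the Gata2 -77 enhancer and an empty vector (hi-77+/+ empty), cells without that enhancer and an empty vector (hi-77-/- empty), and cells without it that expressed GATA2 (hi-77-/- GATA2) or a GATA2 with 9 amino acids inserted between its zinc fingers (hi-77-/- 9aa-Ins). Whether a genotype was represented by more than 1 line is not given in the labels, and an effect of the deletion and a difference between lines cannot be told apart. The age of the embryos is not given in the sources used here.

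GATA2 is a zinc finger factor of blood stem and progenitor cells that binds the motif WGATAR and can open or close chromatin at enhancers far from the genes they serve. Far2 encodes a fatty acyl-CoA reductase, which makes the fatty alcohols used in waxes and ether lipids. Ywhaz encodes 14-3-3 zeta, an adapter that binds phosphorylated serine and threonine sites on signaling proteins. Capzb encodes the beta subunit of CapZ, the protein that caps the barbed ends of actin filaments.

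For each library the 49000 most significant peaks were taken, and peaks of different libraries that overlapped by 1 bp or more were merged into regions. A region was called opened when all 4 libraries of the group named first had a peak and none of the 4 of the other group did, and closed in the reverse case. A rank of 1 is the most significant peak of a library, and the rank percentile runs from 100 for that peak to 0 for a library with no peak among its 49000. Depth is unknown, because the deposited lists hold no read totals. The background pileup implied by the steps of the fold enrichments, an approximate relative depth, was 0.301 to 0.707 in hi-77+/+ empty, 0.378 to 0.666 in hi-77-/- empty, 0.467 to 0.89 in hi-77-/- GATA2 and 0.513 to 0.64 in hi-77-/- 9aa-Ins libraries, and its part in the results was not tested. At Gata2 itself, peaks covered 1196 to 1414 bp around the -77 enhancer in hi-77+/+ empty libraries and 0 to 609 bp in the 12 hi-77-/- libraries. The hi-77-/- libraries with a peak there were replicate 4 of the empty (609 bp), GATA2 (246 bp) and 9aa-Ins (394 bp) groups and 9aa-Ins replicate 3 (607 bp). Peaks covered 44.4% to 63.2% of the Gata2 coding exons with GATA2, 89.9% to 99.6% with 9aa-Ins, 7.6% to 8.8% in hi-77-/- empty and 0% in hi-77+/+ empty libraries. The GATA2 and 9aa-Ins retroviruses carried mouse Gata2 cDNA, so reads from the vector and from the gene cannot be told apart at these exons. Of 10 progenitor genes, 8 had a peak within 1 kb of the 5′ end in 16 of 16 libraries, Fli1 had one in 5 and Lmo2 in 0, while none of the 5 hepatocyte, 3 endothelial and 3 T cell genes had one among the 49000 in any library.

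The leading region of each gene, the opened region with the best median rank in the GATA2 libraries, lay away from the gene's promoter. The Far2 lead (mm10 chr6:148108678-148109750) was in an intron of Far2, +62.0 kb from its 5′ end. The Ywhaz lead was at -79.4 kb, upstream of Ywhaz and overlapping the long noncoding RNA gene Gm10384. The Capzb lead (chr4:139179699-139180288) was at -12.9 kb, upstream of Capzb and overlapping the noncoding gene Gm16287. The sequences show where WGATAR lies at the Far2 and Capzb leads and were read from the GRCm38 reference on its plus strand. Each is 300 bases centred on a peak summit, with matches to WGATAR on either strand in capitals, and the Far2 stretch is centred on the median summit of the GATA2 libraries.
Far2 lead, chr6:148109137-148109436: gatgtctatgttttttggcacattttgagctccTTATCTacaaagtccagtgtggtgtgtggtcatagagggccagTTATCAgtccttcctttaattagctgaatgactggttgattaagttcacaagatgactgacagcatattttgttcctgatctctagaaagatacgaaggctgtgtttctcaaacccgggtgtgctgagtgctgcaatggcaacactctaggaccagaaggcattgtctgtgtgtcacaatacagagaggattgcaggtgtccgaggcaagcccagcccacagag
Capzb lead, chr4:139179791-139180090: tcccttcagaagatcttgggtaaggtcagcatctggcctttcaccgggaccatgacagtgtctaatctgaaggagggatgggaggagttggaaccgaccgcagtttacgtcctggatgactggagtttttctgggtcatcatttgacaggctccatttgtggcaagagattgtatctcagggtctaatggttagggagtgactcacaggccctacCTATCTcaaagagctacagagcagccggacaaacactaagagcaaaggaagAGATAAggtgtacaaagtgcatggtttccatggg

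WGATAR was searched on both strands as an A or T, then GATA, then an A or G. In 300 bases centred on the median summit of all libraries with a peak, the Capzb lead held 2 matches and the Far2 lead held 0. Over all 90541 regions, 36.6% of such windows held at least 1 match and 10.6% at least 2. Of the 1566 regions opened by GATA2, 83.8% held at least 1 and 44.8% at least 2. The result at Far2 depends on where the window is set. The median summit of the GATA2 libraries lay at -79 bp from the median over all libraries, and the window on it, which was chosen after the first count was seen, held 2 matches. The whole merged Far2 region, 1073 bp long, held 3, against 2 in the 590 bp of the Capzb region. At Capzb the matches lay 67 and 118 bp from the median summit. The Capzb lead held no E-box (CANNTG) 6 to 14 bases from WGATAR, which 2.79% of all regions did. The ETS core GGAA, on either strand, was found 3 times at the Far2 lead and 3 times at the Capzb lead, and the median over all regions was 3.

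Beside the leads GATA2 opened 3 regions, near Ywhaz at +148.8 kb and -55.7 kb and near Capzb at +59.3 kb. The 300 bases around their median summits held 2, 1 and 1 matches to WGATAR. The match near Capzb, at 139252295 to 139252300, lay outside the merged region, which ended at 139252286. The 2 regions near Capzb that GATA2 closed, at -149.1 kb and +106.3 kb, held 0, and of all 2020 regions closed by GATA2 25.9% held at least 1. The 3 opened regions and the closed region at -149.1 kb are shown over the 150 bases around the median summit, in which the region at +59.3 kb held 0.
Ywhaz +148.8 kb, chr15:36648051-36648200: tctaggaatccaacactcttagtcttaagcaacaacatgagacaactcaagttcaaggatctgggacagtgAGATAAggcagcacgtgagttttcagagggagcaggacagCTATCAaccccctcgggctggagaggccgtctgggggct
Ywhaz -55.7 kb, chr15:36852530-36852679: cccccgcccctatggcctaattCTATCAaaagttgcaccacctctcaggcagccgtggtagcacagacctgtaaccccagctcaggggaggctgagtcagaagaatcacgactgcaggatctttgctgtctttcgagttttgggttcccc
Capzb +59.3 kb, chr4:139252084-139252233: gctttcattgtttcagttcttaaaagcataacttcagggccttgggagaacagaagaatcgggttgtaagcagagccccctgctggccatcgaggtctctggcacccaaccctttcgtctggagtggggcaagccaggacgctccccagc
Capzb -149.1 kb, chr4:139043723-139043872: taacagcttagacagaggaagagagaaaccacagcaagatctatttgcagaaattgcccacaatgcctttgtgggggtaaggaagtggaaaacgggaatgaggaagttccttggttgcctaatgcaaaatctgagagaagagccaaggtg

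The Far2 lead was open with GATA2 and with 9aa-Ins. Its ranks were 5349, 2751, 3513 and 3242 in the GATA2 libraries. In the 9aa-Ins libraries it ranked 23921, 15517, 19188 and 14163. In the hi-77+/+ empty libraries it had a peak in 2 of 4, at ranks 40878 and 47690, and in the hi-77-/- empty libraries it had none among the 49000. The ranks of the GATA2, the 9aa-Ins and the hi-77+/+ empty libraries did not overlap. The GATA2 ranks chose this region, so nothing is read from their distance to the others. Over all 90541 regions, 15.2% ranked higher in every 9aa-Ins library than in any hi-77+/+ empty library. The share that separated these groups all at once was not counted. The call rests on the number of peaks taken. In the full lists hi-77-/- empty replicate 2 had a peak there at rank 49010, just outside the limit, and replicate 3 had one at rank 59934, so that with 500 more peaks per library the Far2 lead was no longer called opened.

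The Ywhaz lead was open with GATA2 and in cells with the enhancer, and not with 9aa-Ins. It ranked 8042, 8886, 6283 and 7361 in the GATA2 libraries. It ranked 34202, 37045, 33904 and 36741 in the hi-77+/+ empty libraries. No hi-77-/- empty and no 9aa-Ins library had a peak there among its 49000. In the full lists 1 hi-77-/- empty library had a peak, at rank 62711, and 1 9aa-Ins library had one, at rank 82284. These peaks were 127 and 126 bp wide.

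The Capzb lead was open with GATA2 and in cells with the enhancer, and was absent from the full hi-77-/- empty and 9aa-Ins lists. It ranked 6679, 11044, 6431 and 8440 in the GATA2 libraries and 28959, 35630 and 45277 in 3 of the hi-77+/+ empty libraries. The remaining hi-77+/+ empty library, replicate 2, had its peak at rank 70437. In no hi-77-/- empty and no 9aa-Ins library did any deposited peak overlap the region.

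**Figure D1:**
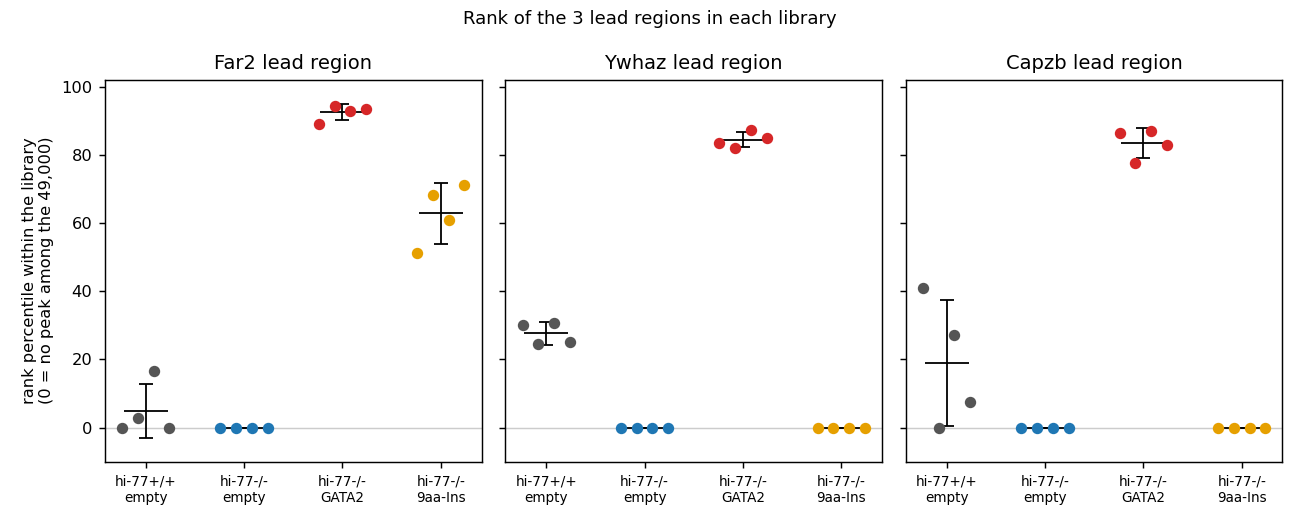
Rank percentile of the 3 lead regions within each library, where 100 is the most significant peak and 0 means no peak among the 49000. Points are single libraries, and bars give the mean and SD of 4; the Far2 lead stands at 62.9 on average with 9aa-Ins, whereas the Ywhaz and Capzb leads stand at 0.

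**Figure D2:**
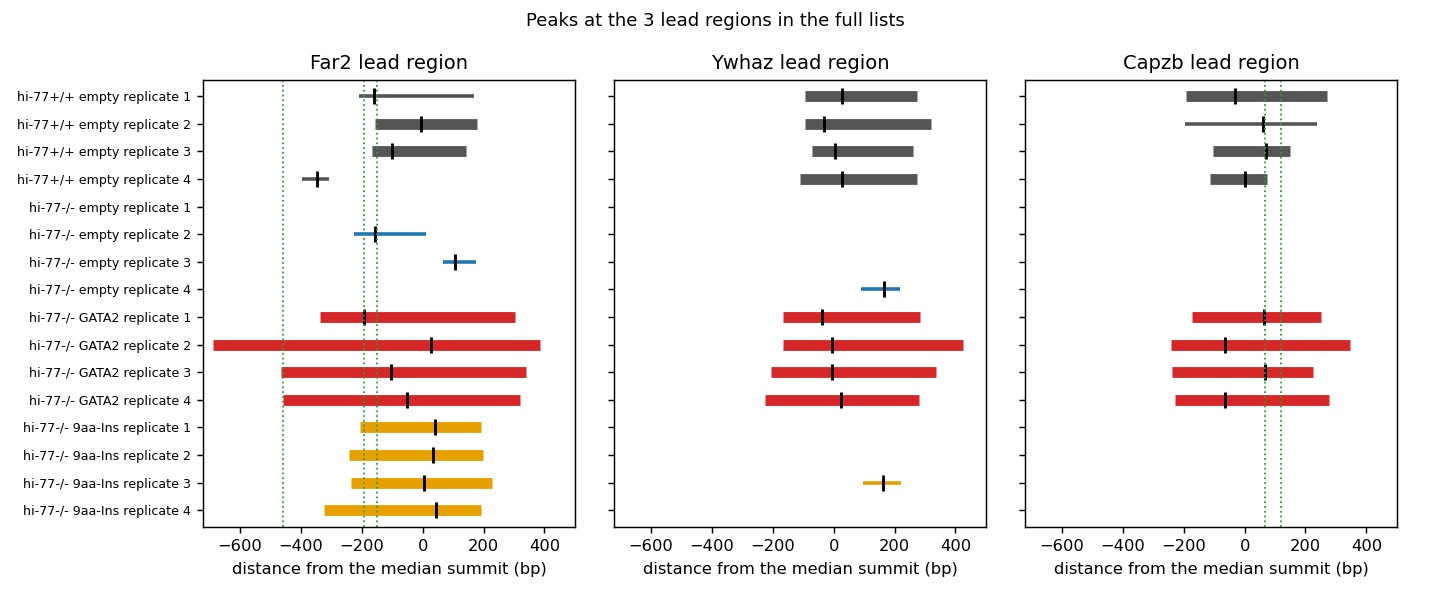
Extent of the best peak of each library at the 3 leads in the full lists, as distance in bp from the median summit. Thick bars are peaks among the 49000 of the library, thin bars are weaker peaks, black ticks are summits and dotted green lines are WGATAR matches at Far2 and Capzb; the GATA2 peaks at Far2 span 642 to 1073 bp and the 9aa-Ins peaks 398 to 514 bp.

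The comparison of 9aa-Ins with hi-77+/+ empty libraries was not used to choose the genes and was tested at each lead with a two-sided exact permutation test, for which the smallest possible p is 0.0286. The leads were chosen for no hi-77-/- empty peak, however, and the 9aa-Ins cells lack the same enhancer. That choice can tilt the 9aa-Ins values towards 0. The leads were also chosen for peaks in all 4 GATA2 libraries, which can tilt the values of a GATA2 variant upwards. Nothing is therefore concluded from the p-values at any of the leads. At the Far2 lead the rank percentile was 62.9 ± 8.91 (SD, n = 4) with 9aa-Ins against 4.81 ± 7.94 (SD, n = 4) for hi-77+/+ empty, a difference of 58.1 (exact p = 0.0286). At the Ywhaz lead it was 0 in all 4 9aa-Ins libraries against 27.6 ± 3.36 (SD, n = 4) for hi-77+/+ empty, a difference of -27.6 (exact p = 0.0286). At the Capzb lead it was 0 and 18.9 ± 18.6 (SD, n = 4), a difference of -18.9 that did not pass (exact p = 0.143). Over all 90541 regions, 15.2% ranked higher in every 9aa-Ins library than in any hi-77+/+ empty library and 11.2% lower in every one, so a separation of this kind was common in the series. Those regions were not chosen by their hi-77-/- empty peaks as the leads were. These p-values were not adjusted, and none could pass an adjustment over all regions with 4 libraries a group. The Far2 difference was 0 when peaks had to cover 50% of the merged region, because the region takes its width from 1 GATA2 library, and the Ywhaz difference was 0 with lists 50% as long, where no library of either group had a peak. With lists 50% as long the Far2 difference was 25.7 (exact p = 0.0286), and with all deposited peaks the Ywhaz difference was -59.0 (exact p = 0.0286). Without hi-77+/+ empty replicate 2 the Capzb difference was -25.3 (exact p = 0.0286), without replicate 1 it was -11.6 (exact p = 0.143), and with all deposited peaks it was -50.8 (exact p = 0.0286).

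At the Far2 lead the 4 9aa-Ins summits lay within 40 bp, from 148109371 to 148109411. The 4 GATA2 summits spread over 220 bp, from 148109172 to 148109392, and 3 of the 4 lay to the left of every 9aa-Ins summit. The WGATAR matches at 148109170 and 148109213 lay within all 4 GATA2 and all 4 9aa-Ins peaks. At Ywhaz the summits of the GATA2 and the hi-77+/+ empty libraries spanned 63 and 60 bp and overlapped, and at Capzb they spanned 130 and 100 bp and overlapped.

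Among the 1566 regions opened by GATA2, ordered by median rank in the GATA2 libraries, the Far2 lead was in place 1 (median rank 3377.5), the Capzb lead in place 4 (7559.5) and the Ywhaz lead in place 6 (7701.5). The median over all of them was 29367. Place 2 was a region on chromosome 8 far from any coding gene (nearest Cdh8, median rank 5625.5), place 3 was in an intron of Ahi1, 95.1 kb from the 5′ end of Myb (7133), and place 5 was at -4.7 kb from Tmem268 (7701.5, tied with Ywhaz). Of these, the regions near Myb and Tmem268 had a peak in 4 of 4 9aa-Ins libraries, like the Far2 lead, and the region near Cdh8 in 0 of 4. Just behind the leads came regions near Postn (7886) and in an intron of 4932438H23Rik, -19.5 kb from Paxbp1 (8402.5), with a peak in 1 and 4 of the 9aa-Ins libraries. The 3 genes are therefore among the 6 leading places and are not the first 3, and the order depends on the list. With all deposited peaks 1369 regions were opened, the Capzb lead was in place 2, and the Far2 and Ywhaz leads were not called opened because of the weak hi-77-/- empty peaks. With lists 50% as long the Far2 lead kept place 1 and the Capzb and Ywhaz leads fell to places 19 and 21.

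**Figure D3:**
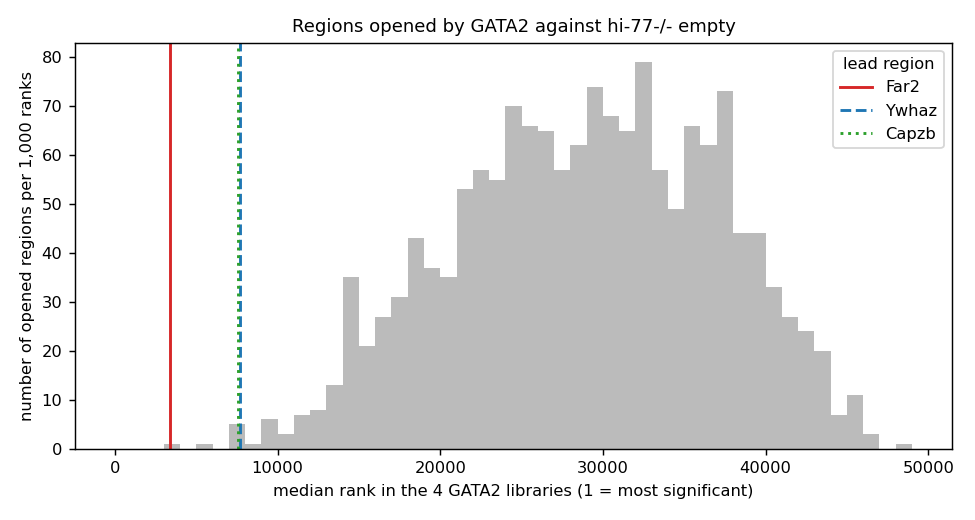
Histogram of the median rank in the 4 GATA2 libraries for the 1566 opened regions, counted per 1,000 ranks. Vertical lines mark the leads, at 3377.5 for Far2, 7559.5 for Capzb and 7701.5 for Ywhaz. The median of all opened regions is 29367, and the leads lie to its left because they were chosen by these ranks.

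The Far2 lead had a different pattern over the other groups from the Ywhaz and Capzb leads. The calls of the Ywhaz and Capzb leads differed only in hi-77+/+ empty replicate 2, which held the Capzb peak at rank 70437 in its full list. Of the 1566 opened regions, 11.4% had a peak in 4 of 4 9aa-Ins libraries and 64.9% in 0 of 4, and 6.77% had one in 4 of 4 hi-77+/+ empty libraries. The group counts of the Far2 lead were 2, 0, 4 and 4 in the order hi-77+/+ empty, hi-77-/- empty, GATA2 and 9aa-Ins. They were those of 23 regions, 1.47% of the opened regions and 0.0254% of all regions. The counts of the Ywhaz lead, 4, 0, 4 and 0, were those of 48 regions (3.07% of the opened, 0.053% of all). Those of the Capzb lead, 3, 0, 4 and 0, were those of 44 (2.81% of the opened, 0.0486% of all). Likeness was the same presence or absence in all 16 libraries and then the smallest mean absolute difference in rank percentile. The regions most like the Far2 lead were in introns of Pfkfb3 (mean difference 14.8), Fcrl5 (15.9) and Ppp3ca (25.1), and no others shared its 16 calls. Those most like the Ywhaz lead were in an intron of Ptges (4.30), near Anapc4 (7.13) and in an intron of Wdfy3 (8.63). Those most like the Capzb lead were in introns of Zdhhc19 (6.92), Etv6 (11.98) and Diaph3 (13.0).

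The question for the rest of each window was whether the leads stood alone. GATA2 opened 6 of the 100 regions and closed 2, against 1.73% and 2.23% of all regions, and since 3 of the 6 are the leads that chose the genes nothing is read from the first count. The -77 deletion opened 1 and closed 3, against 3.6% and 2.13% of all regions. 9aa-Ins against hi-77-/- empty opened 4 and closed 0, against 1.35% and 0.17% of all regions. 9aa-Ins against GATA2 opened 3 and closed 4, against 2.97% and 1.48% of all regions. The leads are also among these counts, as 1 of the 3 closed by the deletion (Ywhaz), 1 of the 4 opened by 9aa-Ins (Far2) and 2 of the 4 closed in 9aa-Ins against GATA2 (Ywhaz and Capzb). They were chosen for peaks in all GATA2 and no hi-77-/- empty libraries, so nothing is read from those counts either. The comparisons share libraries: GATA2 and 9aa-Ins were both set against the same hi-77-/- empty libraries. In all, 12 regions were called in at least 1 comparison, 3 near Far2, 4 near Ywhaz and 5 near Capzb.

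**Figure D4:**
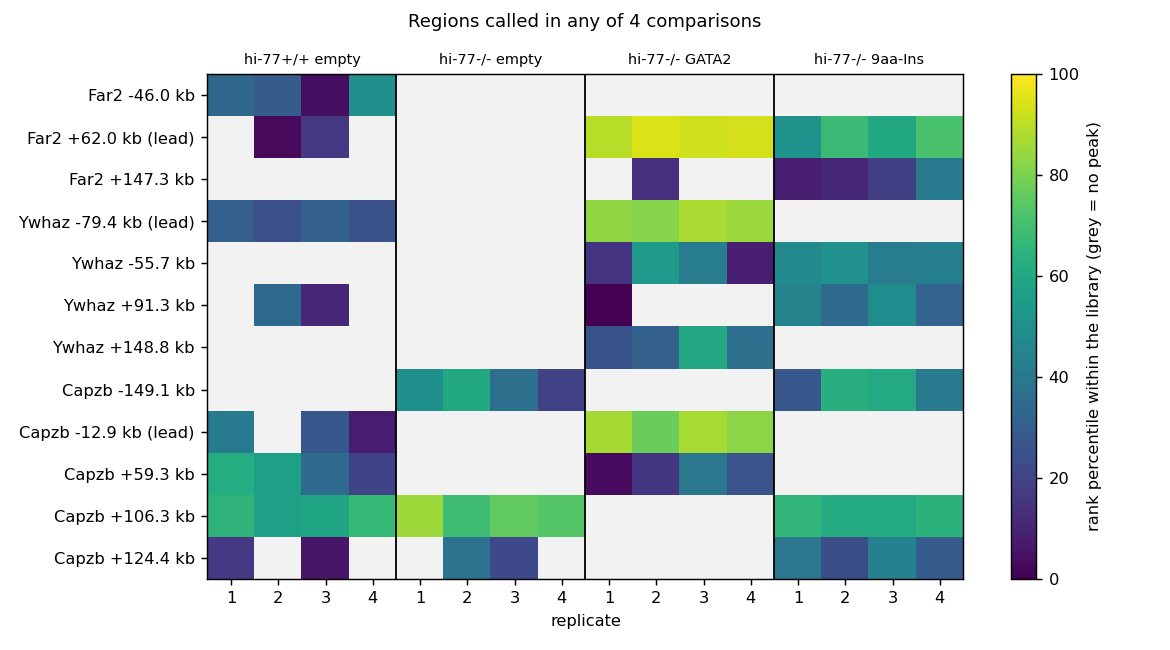
Rank percentile within the library of the 12 regions called in any of the 4 comparisons, 1 row a region and 1 column a library, with the group above and the replicate below. Grey means no peak among the 49000. The leads, which were chosen by their GATA2 ranks, are the brightest cells of the GATA2 columns. The Far2 region at -46.0 kb and the Capzb regions at -149.1, +106.3 and +124.4 kb are grey in all 4 GATA2 libraries.

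Near Far2, a region at -46.0 kb, upstream of the gene and outside any annotated gene, was open in the 4 hi-77+/+ empty libraries, at ranks 32629, 34811, 47025 and 24350, whereas the 12 hi-77-/- libraries lacked it. It was closed by the deletion and was not called open with GATA2 or 9aa-Ins. Its full lists held weaker peaks in 2 hi-77-/- empty, 1 GATA2 and 2 9aa-Ins libraries. A region at +147.3 kb, in an intron of the neighbouring Ergic2, a gene of transport between the endoplasmic reticulum and Golgi, was opened by 9aa-Ins, with ranks of 44816, 43628, 39663 and 28743. Among the 49000 of the GATA2 libraries it was found in replicate 2, at rank 42202, and 2 of 4 GATA2 full lists held it. No hi-77+/+ empty or hi-77-/- empty library had it in its full list. A further intron region of Far2, at +58.7 kb and so close to the lead, was named after its values were seen. It was open in 16 of 16 libraries, at ranks of 6902 to 14950 in hi-77+/+ empty, 18652 to 24616 in hi-77-/- empty, 7619 to 9065 in GATA2 and 7281 to 12676 in 9aa-Ins libraries. The hi-77-/- empty ranks were worse than those of every other library. Of all 21167 regions open in 16 of 16 libraries, 16.6% had 4 worse ranks after the deletion. With GATA2 8.79% had 4 better ranks than hi-77-/- empty, and with 9aa-Ins 6.65% did. The share with all of these together was not counted, so nothing is read from this region.

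Near Ywhaz, the region at -55.7 kb, between the lead and the gene, was opened by GATA2 and by 9aa-Ins. Its ranks were 41697, 22540, 28189 and 44912 with GATA2 and 25742, 24274, 28356 and 27795 with 9aa-Ins, and the ranges overlapped. All 4 hi-77-/- empty libraries had a weaker peak there in their full lists, beyond the 49000. The region at +148.8 kb, in the noncoding gene Gm46515 and nearest to Pabpc1, which encodes the cytoplasmic poly(A)-binding protein, was open only in the GATA2 libraries among the 49000, at ranks 36730, 33996, 19407 and 30937. In the full lists it had a peak in 4 of 4 hi-77+/+ empty, 0 of 4 hi-77-/- empty and 1 of 4 9aa-Ins libraries. The region at +91.3 kb was opened by 9aa-Ins, at ranks 27161, 31871, 25259 and 33580, but had a peak in the full lists of all 4 hi-77-/- empty, all 4 hi-77+/+ empty and 3 GATA2 libraries.

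Near Capzb, GATA2 opened 2 of the 49 regions, the lead among them, and closed 2. The shares over all regions were 1.73% and 2.23%, and nothing is read from these small counts. The intron region of Capzb at +59.3 kb was closed by the deletion and opened by GATA2, like the Ywhaz lead, and was not open with 9aa-Ins among the 49000. It ranked 18596, 21173, 31839 and 39007 in hi-77+/+ empty and 47533, 41330, 29646 and 36424 in GATA2 libraries, and 3 of 4 9aa-Ins and 1 of 4 hi-77-/- empty full lists held it. The region at +106.3 kb overlapped the last coding exon and 3′ UTR of Pqlc2, which encodes a lysosomal exporter of cationic amino acids. It ranked 17197, 21174, 19980 and 16197 in hi-77+/+ empty libraries and 7155, 15230, 11923 and 13181 in hi-77-/- empty libraries. With 9aa-Ins it ranked 16620, 18919, 19098 and 17468. No GATA2 library had a peak there, even in its full list. A region at +124.4 kb, at an exon of a noncoding transcript of the aldo-keto reductase gene Akr7a5, had a peak in 4 of 4 9aa-Ins and 0 of 4 GATA2 libraries, and in full lists in 4 of 4 libraries of each group except GATA2, where it had 0. The region at -149.1 kb, in an intron of Tmco4, was opened by the deletion and closed by GATA2. It ranked 24337, 19275, 30836 and 39494 in hi-77-/- empty and 35610, 18160, 19097 and 28531 in 9aa-Ins libraries. In the full lists it had a peak in 3 of 4 hi-77+/+ empty and 0 of 4 GATA2 libraries, so its call after the deletion rests on the number of peaks taken.

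None of the regions at the 5′ ends of the 3 genes was called in any of the 4 comparisons. No full list of the 16 held a peak within 1 kb of either 5′ end of the coding transcripts of Far2. At Ywhaz the 5′ end of the most upstream transcript had none either, while the 5′ ends of the other 6 coding transcripts fell at a region (chr15:36791984-36794931) open in 16 of 16 libraries at a median rank of 338. At Capzb the promoter region (chr4:139192282-139194084) was open in 16 of 16 at a median rank of 1278. The Ywhaz promoter region had median ranks of 1306 in hi-77+/+ empty, 302.5 in hi-77-/- empty, 382.5 in GATA2 and 209.5 in 9aa-Ins libraries. The Capzb promoter region had median ranks of 2871.5, 1445.5, 1027 and 961 in the same order. The other coding genes with a 5′ end in the Capzb window were Minos1, Pqlc2 and Akr7a5, with a peak in 16 of 16 libraries, and Htr6 and Nbl1, with a peak in none among the 49000.

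In all 24 of the 100 regions were open in 16 of 16 libraries, against 23.4% of all regions, and their ranks were compared for complete separation of 2 groups. After the deletion 7 had 4 better and 4 had 4 worse ranks, the promoter regions of Ywhaz and Capzb among the better, against 17.5% and 16.6% of the 21167 such regions of the series. With GATA2 1 was better and 5 were worse, against 8.79% and 10.5%. With 9aa-Ins 1 was better and 2 were worse, against 6.65% and 5.22%. On chromosome 15, which carries Ywhaz, 23.6% of the 821 such regions were better and 11.7% worse after the deletion, and 4 of the 7 better regions were near Ywhaz. The shares were 16.9% and 14.3% on chromosome 4, and 19.6% and 15.8% on chromosome 6. The region better in both was that of Far2 at +58.7 kb.

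**Figure D5:**
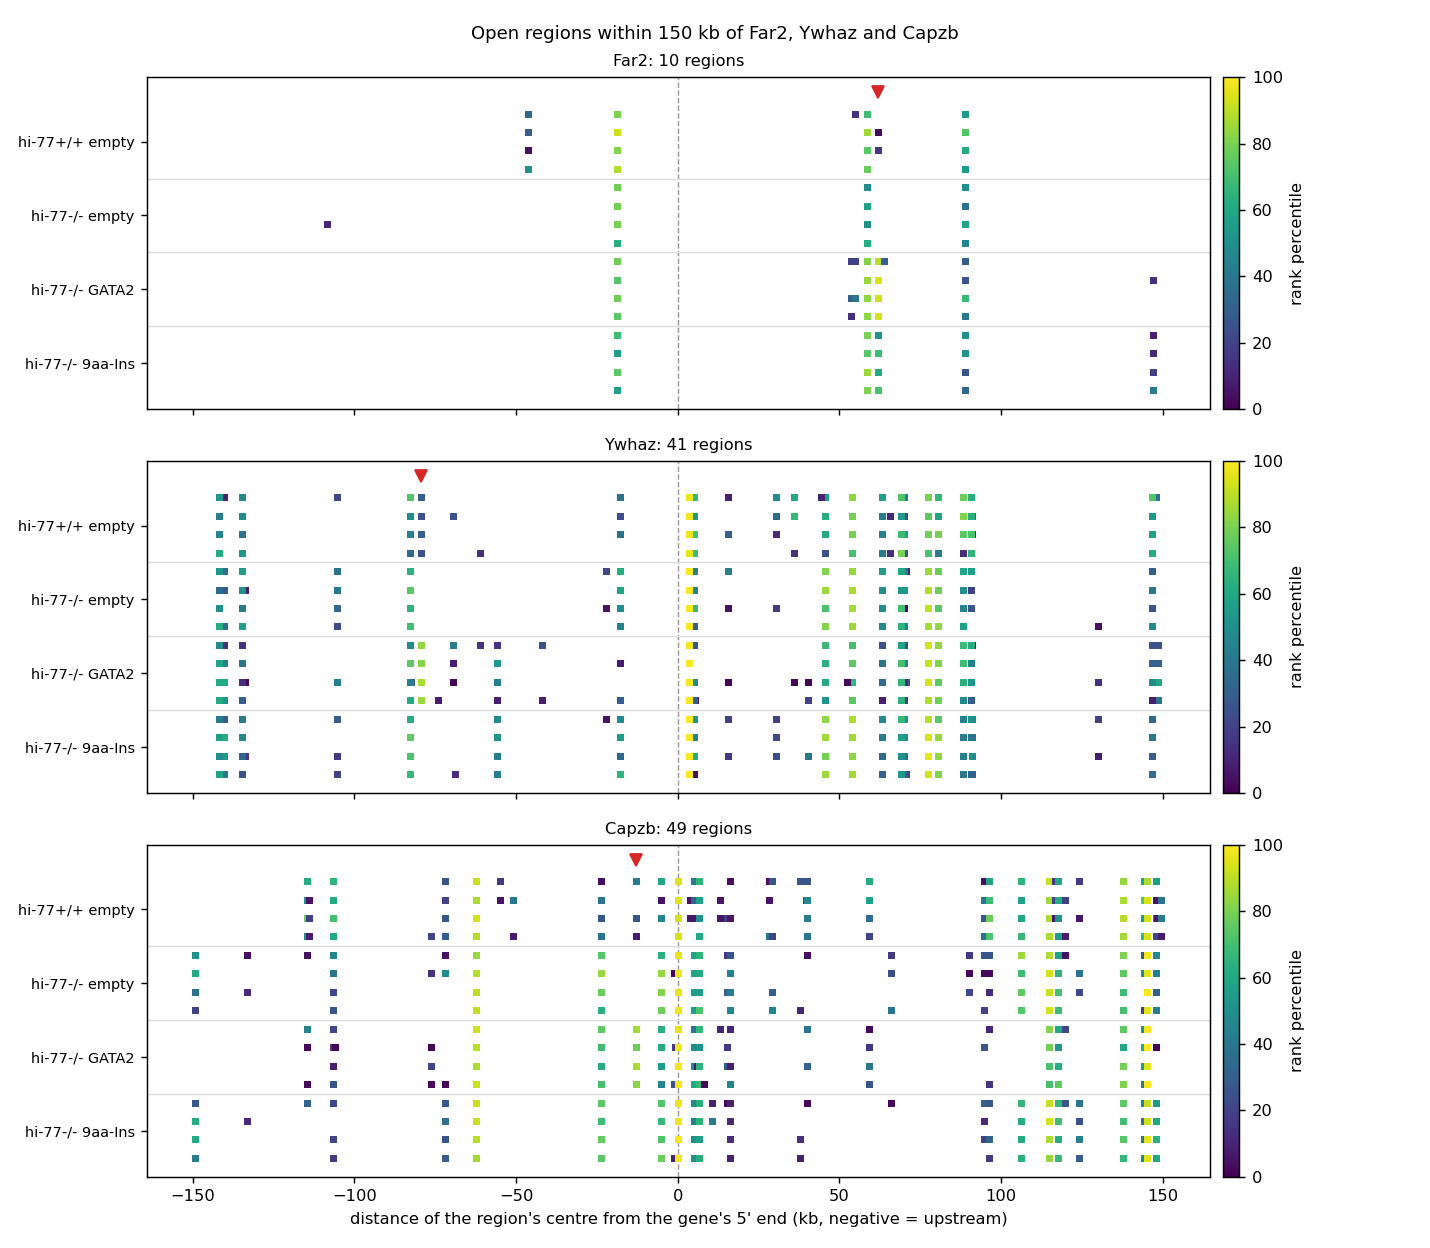
Open regions of the 3 windows by distance in kb of their centre from the 5′ end of the gene, with 1 row a library and color for the rank percentile. Red triangles mark the leads; the Far2 window holds 10 regions, against 41 for Ywhaz and 49 for Capzb.

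The number of open regions per library, leaving out the lead, passed the threshold in none of 9 exact permutation tests. Near Capzb it averaged 28 ± 1.83 (SD, n = 4) for hi-77+/+ empty against 22.8 ± 2.75 (SD, n = 4) for hi-77-/- empty, a difference of -5.25 that did not pass (exact p = 0.0571). With GATA2 it was 19.3 ± 0.957 (SD, n = 4) and with 9aa-Ins 22.0 ± 2.71 (SD, n = 4), and the difference of 2.75 between them did not pass (exact p = 0.0857). Near Ywhaz it was 20.3 ± 2.22, 19.5 ± 1.29, 23.0 ± 3.74 and 22.5 ± 1.91 (SD, n = 4 each) in hi-77+/+ empty, hi-77-/- empty, GATA2 and 9aa-Ins libraries, and the lowest exact p was 0.0857, for 9aa-Ins against hi-77-/- empty. Near Far2 it was 4.25 ± 0.5, 3.25 ± 0.5, 4.75 ± 0.957 and 4 ± 0 (SD, n = 4 each) in the same order, and the lowest exact p was 0.114, for the deletion. The Capzb difference after the deletion passed without hi-77-/- empty replicate 1 (-6.33, exact p = 0.0286) and with all deposited peaks (-9.5, exact p = 0.0286), where the number of peaks also follows the number deposited in each library. Other differences also passed when 1 library was left out. Without hi-77-/- empty replicate 3 the Far2 difference was -1.25 after the deletion and 1 for 9aa-Ins against hi-77-/- empty (exact p = 0.0286 each). Without 9aa-Ins replicate 2 the Ywhaz difference was 3.83 for 9aa-Ins against hi-77-/- empty, and the Capzb difference was 3.42 for 9aa-Ins against GATA2 (exact p = 0.0286 each).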

How the data were processed

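ATAC-Seq was performed on 16 libraries in 4 groups taken from the labels. Per the labels and the submitters' processing notes, the authors trimmed reads with Trim Galore (version 0.4.1), aligned them to mm10 with Bowtie2 (2.2.5), used Picard (2.26.0), and ran the MACS2 peak caller on each library. The deposited lists give a score, a fold enrichment (a ratio to a constant background of the library), -log10 p, -log10 q and a summit for each peak. Because these values depend on depth, they were used within a library only, to rank its 50195 to 112267 peaks. The peaks of chromosomes 1 to 19 and the sex chromosomes were ranked by -log10 p, then fold, and the first 49000 were kept, where -log10 p was still 5.35 to 11.7. This limit differed between groups. It was 5.35 to 7.43 in hi-77-/- GATA2 and 7.38 to 8.13 in hi-77-/- empty libraries. In hi-77+/+ empty libraries it was 8.34 to 9.70, and in hi-77-/- 9aa-Ins libraries 8.75 to 11.7. The part of this difference in the calls was not tested. Merging, calls and exact tests were run in Python 3.11.15 with numpy 2.4.6 and pandas 2.3.3, after tests on simulated peak lists, and figures were drawn with matplotlib 3.10.9. Genes were those of GENCODE M21, whose build matches the files, and sequences those of the RefSeq copy of GRCm38.

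The genes, windows, lists and tests were chosen with earlier results of these data known. The regions named are the leads, the promoter regions, every region called in any of the 4 comparisons, the 2 opened regions next in rank after the third lead, and for each lead the 3 regions most like it. The regions in places 2, 3 and 5 and the Far2 region at +58.7 kb were added after their values were seen. A p under 0.05 was counted as passing. Alternatives were other numbers of peaks, a q threshold, narrow peaks, ranking by fold, a coverage minimum, summit regions, a 100 kb window, leaving out each library and a replicate block. Some marker and sequence results are not reported here. RNA, read coverage and GATA2 binding were not analysed here, so no gene's expression is described.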

Additional observations from a re-analysis of the deposited data

Results flagged for a closer look

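Within each group of 4 libraries, 24 sets of values were examined for a library far from the other 3, and 4 libraries stood apart. For continuous values chance picks about 1 in 20 sets. That rate does not hold here, because sets of equal values cannot be picked and small counts can be picked on 1 region. The rank percentile of the Far2 lead was 16.58 in hi-77+/+ empty replicate 3 against 0 to 2.68 in the other 3. The number of open regions near Far2 without the lead was 5 in hi-77+/+ empty replicate 1 against 4 in each of the others. It was 4 in hi-77-/- empty replicate 3 against 3 in each of the others. Both of these Far2 counts are 1 region from the rest. The number of open regions near Capzb without the lead was 26 in hi-77-/- 9aa-Ins replicate 1 against 20 to 21 in the others.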

How the results depend on the processing

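Of 368 values recomputed under an alternative, 307 neither changed sign nor crossed the threshold, or kept their count within 1.5 times. Differences that fell to 0 without crossing the threshold are among the 307. So are the values ranked by fold, which equalled those of the main ranking. Of the others, 27 counts moved, 15 differences reversed, 15 came to pass the threshold and 4 no longer passed. The labels do not say whether same-numbered libraries were made together. Of 16 correlations between the deviations of same-numbered libraries, 0 exceeded 0.1 (-0.043 to 0.076), which cannot show that they were not paired. With the replicate number as a block, the differences of 58.1 at the Far2 lead and -27.6 at the Ywhaz lead had p = 0.125 in the exact sign-flip test, the smallest p that 4 pairs can give. The cause of the other changes was not tested.

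With all deposited peaks the Far2 lead had a peak in 4 hi-77+/+ empty and 2 hi-77-/- empty libraries, the Ywhaz lead in 1 hi-77-/- empty and 1 9aa-Ins library, 9aa-Ins against hi-77-/- empty gave 2 calls, and the difference at the Capzb lead was -50.8. With lists 50% as long no lead had a peak in any hi-77+/+ empty library (0 for each of the 3), the Ywhaz difference was 0, and the deletion gave 7 calls, GATA2 4, 9aa-Ins 2 and the comparison of 9aa-Ins with GATA2 4. With -log10 q of 5 or more, 9aa-Ins gave 2 calls, 9aa-Ins against GATA2 gave 11, and the Far2 lead had a peak in 1 hi-77-/- empty library, as it did among peaks narrower than 1 kb and with 500 more peaks per library. With 50% coverage GATA2 gave 4 calls, the Far2 lead had 0 hi-77+/+ empty and 0 9aa-Ins libraries and a difference of 0, and the Capzb lead had 1 hi-77+/+ empty library. In the 100 kb window GATA2 gave 5 calls and 9aa-Ins against GATA2 gave 3. WGATAR matches were 3 in the whole Far2 region, 2 in its window on the GATA2 summit and 1 in 150 bases at the Capzb lead.

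With every library kept, differences in open regions per library came to pass the threshold or changed sign as follows. For the deletion they were -15.25 (Ywhaz) and -9.5 (Capzb) with all deposited peaks, -5 (Capzb) with the q threshold and -1.25 (Far2) in the 100 kb window. For 9aa-Ins against hi-77-/- empty they were 10.5 (Capzb) with all deposited peaks, -0.25 (Ywhaz) and 0.5 (Capzb) with lists 50% as long, 8 (Ywhaz) and 6.25 (Capzb) with the q threshold and 3.25 (Capzb) with 50% coverage. For 9aa-Ins against GATA2 they were 9.25 (Ywhaz) with all deposited peaks, 0.25 (Ywhaz) with lists 50% as long, 9.5 (Ywhaz) and 15 (Capzb) with the q threshold, -2 (Far2) and 0.75 (Ywhaz) among narrow peaks, 3.75 (Ywhaz) and 7 (Capzb) with 50% coverage and -0.25 (Capzb) in the 100 kb window.

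Leaving out each library in turn, the deletion gave 4 to 7 calls (7 without hi-77+/+ empty replicate 1), GATA2 8 to 10, 9aa-Ins 4 to 5 and the comparison of 9aa-Ins with GATA2 7 to 10. Differences at the leads ranged from 55.3 to 62.0 at Far2, -28.7 to -26.5 at Ywhaz and -25.3 to -11.6 at Capzb. Differences in open regions for Far2, Ywhaz and Capzb ranged from -1.25 to -0.75, -1.5 to 0.167 and -6.33 to -4.33 for the deletion, 0.667 to 1, 2.5 to 3.83 and -2.08 to 0.333 for 9aa-Ins, and -1 to -0.333, -1.83 to 1.17 and 1.42 to 3.42 for 9aa-Ins against GATA2. Of these, Far2 after the deletion (-1.25) and with 9aa-Ins (1) passed without hi-77-/- empty replicate 3, Ywhaz with 9aa-Ins (3.83) and Capzb with 9aa-Ins against GATA2 (3.42) without 9aa-Ins replicate 2, and Capzb after the deletion (-6.33) without hi-77-/- empty replicate 1. Those for Ywhaz with 9aa-Ins against GATA2 changed sign without hi-77-/- GATA2 replicate 3 (1.17) and without hi-77-/- 9aa-Ins replicate 2 (0.333), as did Ywhaz after the deletion without hi-77+/+ empty replicate 1 (0.167) and Capzb with 9aa-Ins without hi-77-/- empty replicate 1 (0.333).

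The lists hold no read totals, so the absence of a peak is not the absence of accessibility, and a weak site can be missed in a shallow library. Ranks describe a region against the other peaks of its library and not its amount of open chromatin.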
